A study of Bos taurus with 60 samples.

Results

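Mammary biopsies were examined for 4 genes known from adipocytes: *ADIPOQ* (locus XLOC_000738, ENSBTAG00000019813), *FABP4* (XLOC_005046, ENSBTAG00000037526), *MEDAG* (XLOC_003529, ENSBTAG00000008271) and *RETSAT* (XLOC_002363, ENSBTAG00000021934). They were taken by name, each was a locus holding 1 gene, and they stand among 25223 loci of which 14714 were expressed highly enough to be tested. All 4 passed that filter. The animals were 12 multiparous, pregnant Holstein cows sampled at 5 time points relative to dry-off, giving 60 libraries: D-3 (late lactation), D3 and D7 (involution), D14 (steady state) and D25 (start of redevelopment). During the dry period 6 cows were heat-stressed (HT), with shade only, and 6 were cooled (CL), with shade, fans and soakers. Treatment began at dry-off, so D-3 precedes it. Biopsies were trimmed of visible fat and came from another gland of the udder at each successive time point, so a change within a cow is also a change of gland.

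Secretory epithelium of the udder lies in a stroma of connective tissue and fat. *ADIPOQ* encodes adiponectin, a hormone secreted by mature adipocytes, and *FABP4* encodes a fatty acid carrier of adipocytes that capillary endothelium and macrophages also make. *MEDAG* promotes the formation of adipocytes from precursors, and *RETSAT* encodes retinol saturase, an enzyme of vitamin A metabolism that is also needed for adipocyte differentiation. The names of the genes were taken from partial lists of the changes with the smallest p, D3 vs. D-3 for *FABP4* and *RETSAT* and D7 vs. D3 for *ADIPOQ* and *MEDAG*. Those comparisons are therefore described for these genes and are not independent evidence that they changed. The same limit holds for comparisons that share libraries with them. For *ADIPOQ* and *MEDAG*, D3 vs. D-3 reuses the D3 libraries. For *FABP4* and *RETSAT*, D7 and D25 vs. D-3 reuse the D-3 libraries.

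Library totals ran from 20525083 to 26183990 counts. Some libraries stood apart and bear on what follows. At D-3, 5 libraries (cows 7965, 8564 and 8647 of CL, 8541 and 8713 of HT) had 40.2% to 49.8% of their counts in the milk protein genes *CSN1S1*, *CSN2* and *LALBA*, against 0.190% to 8.03% in the other 7. The scaling factors of the trimmed mean of M-values (TMM), which allow for counts taken up by a few genes, were 0.300 to 0.419 in those 5 and 1.02 to 1.21 in the other 7. At D14 the library of CL cow 7965 had 3.36 counts per 1000000 (CPM) of the luminal keratin *KRT19*, against 231 to 1642 CPM in 10 of the other libraries, and 5393 CPM of the fibroblast gene *DCN*, against 561 to 1167 CPM. Among cows, 9 of 12 libraries at D25 but only 2 of 12 at D14 resembled the early libraries of their own cow most. The D14 and D25 libraries of HT cows 8513 and 8660 each resembled the early libraries of the other most, and both late libraries of CL cow 8647 those of HT cow 8668. Exchanging the late labels of 8513 and 8660 moved none of the exact sign-flip tests of the 4 genes, and none of their fits with cow as a block, across the threshold. Levels below are TMM-scaled CPM, which are not per length and are compared only within a gene.

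By median, *ADIPOQ* was lowest at D3 and highest at D7. At D-3 the 12 cows ran from 4.08 to 28.1 CPM with a median of 13.7 CPM. At D3 they ran from 3.02 to 18.8 CPM with a median of 5.43 CPM, and 11 of 12 cows were lower than at D-3. At D7 they ran from 6.55 to 41.6 CPM with a median of 18.7 CPM, and 10 of 12 cows were higher than at D3. These ranges overlapped at every time point, and the shifts are seen within cows. At D14 the range was 7.88 to 313 CPM around a median of 13.3 CPM, and at D25 it was 8.29 to 22.8 CPM around a median of 18.5 CPM. The highest value at D14 came from HT cow 8541, and the other 11 cows stood at 13.6 ± 5.50 CPM (mean ± SD, n = 11).

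The fall of *ADIPOQ* from D-3 to D3 averaged -0.92 ± 0.92 on the log2 scale (SD of 12 within-cow differences; two-sided exact sign-flip test p = 0.00146, Benjamini-Hochberg adjusted p = 0.0293 over 24 such tests). The rise from D3 to D7 averaged 1.43 ± 1.38 (exact sign-flip p = 0.00684, adjusted p = 0.0328). The edgeR quasi-likelihood test across all loci called neither. It gave log2 fold changes of -0.84 (SE 0.45, Benjamini-Hochberg false discovery rate, FDR, of 0.214) and 1.33 (SE 0.45, FDR 0.0895). With cow as a block the edgeR test called the rise at D7 (log2 fold change 1.32, FDR 0.0414). Without the D14 library of cow 8541, which enters the estimate of the spread, it called both the fall (-0.84, FDR 0.0435) and the rise (1.33, FDR 0.00965). Scaled by total counts alone, which moved the median change of all loci from D-3 to D3 to 0.35, the fall was -0.36 ± 1.09 with 8 of 12 cows lower (exact sign-flip p = 0.282) and the rise 1.51 ± 1.44 with 11 of 12 cows higher (p = 0.00537). Under that scaling none of the 24 exact sign-flip tests of the 4 genes passed (smallest adjusted p = 0.0586). In bulk tissue fewer adipocytes and less of the transcript in each adipocyte cannot be told apart, here or in the other results.

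The D14 library of cow 8541 held 8328 *ADIPOQ* counts, or 313 CPM, which was 22.9 times the median of all 60 libraries. The next highest of the 60 was 41.6 CPM, in HT cow 8513 at D7. *FABP4* stood at 255 CPM against 16.9 to 183 CPM in 10 other D14 libraries (without cow 7965), and the lipoprotein lipase gene *LPL* at 173 CPM against 25.8 to 83.4 CPM. *PPARG*, at 30.5 CPM against 9.98 to 29.0 CPM, was just above the range. *MEDAG* at 20.0 CPM and *RETSAT* at 142 CPM lay within the range of the other cows. So did the adipocyte marker *PDE3B* (16.8 CPM) and the lipid genes *PLIN2* (143 CPM) and *CD36* (251 CPM). The lipid gene *GPAM* was below it, at 213 CPM against 315 to 888 CPM. Genes known from adipocytes or lipid handling were thus partly above and partly within or below the range. Of these, *LPL*, *PPARG*, *PLIN2*, *CD36* and *GPAM* are also used by secretory epithelium. The part of fat tissue in this library was not tested. Some stromal genes were above the range of the same 10 libraries, with *DCN*, a proteoglycan of fibroblasts, at 1558 CPM against 561 to 1167 CPM and *DPT*, a protein of the extracellular matrix, at 76.4 CPM against 11.1 to 58.7 CPM. The casein genes *CSN1S1*, at 117 CPM against 144 to 15476 CPM, and *CSN2*, at 99.1 CPM against 409 to 20878 CPM, were below it, while the epithelial keratin *KRT19*, at 635 CPM, lay within it. In that library 17 loci, *ADIPOQ* among them, exceeded every other library by at least 1 log2 unit, and *PPP1R1B* was the only other with a symbol. The median of the other 59 libraries was 0 such loci, and 3 of them had more, the most being the 355 of cow 7965 at D14. With that library the edgeR difference between D14 and D7 was 0.93 (unadjusted p = 0.0402, FDR 1.0) and that between D25 and D14 was -1.19 (unadjusted p = 0.0102, FDR 0.864). Without it they were -0.57 and 0.32, so the direction of both turned on 1 library.

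**Figure D1:**
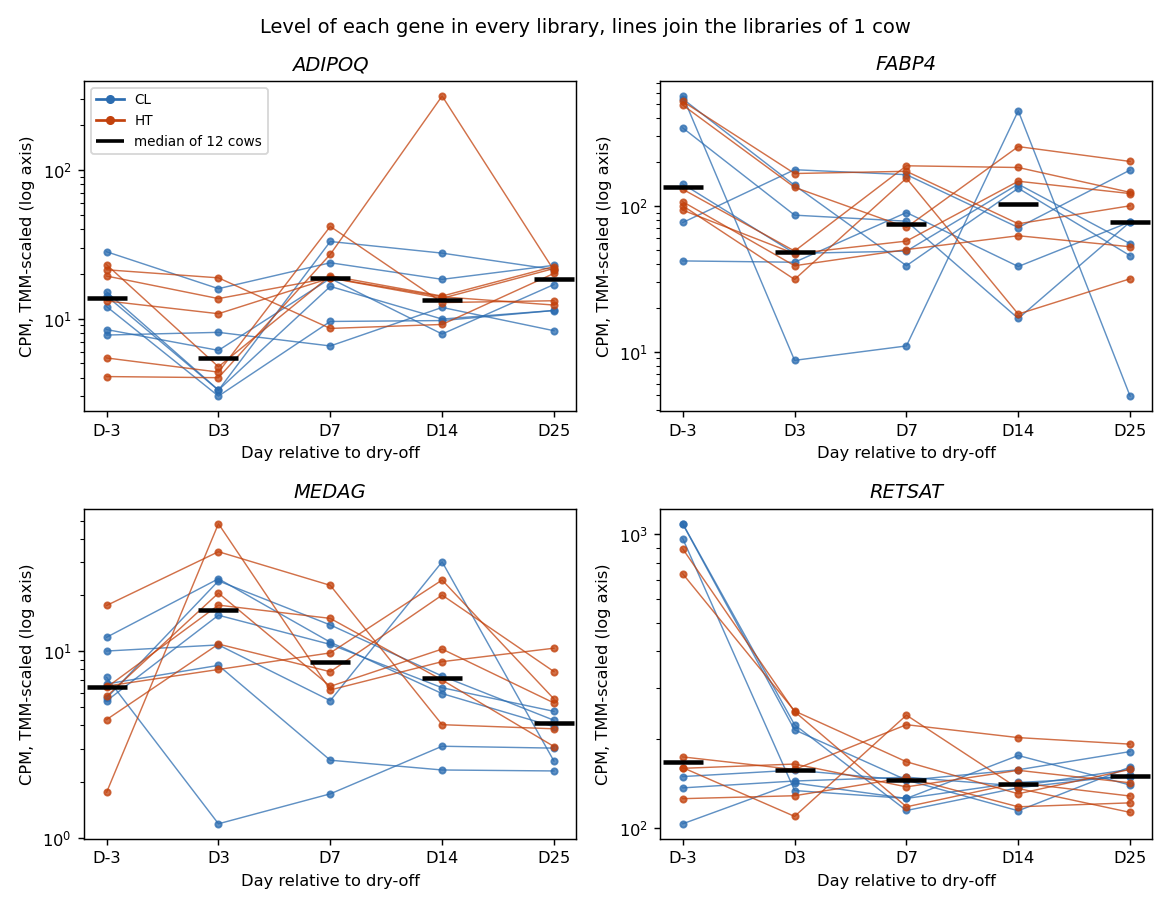
Level of *ADIPOQ*, *FABP4*, *MEDAG* and *RETSAT* in each of the 60 libraries (CPM scaled by TMM, log axis) against the day relative to dry-off, with lines joining the libraries of 1 cow and colours for HT and CL. *ADIPOQ* dipped at D3 and *MEDAG* peaked there, *FABP4* and *RETSAT* split into high and low cows at D-3, and the *ADIPOQ* value of 313 CPM at D14 is that of cow 8541.

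*RETSAT* was high in part of the cows before dry-off and nearly level by median afterwards. At D-3 it ran from 103 to 1086 CPM with a median of 167 CPM. It ran from 109 to 250 CPM (median 157 CPM) at D3, from 114 to 242 CPM (median 145 CPM) at D7, from 114 to 203 CPM at D14 and from 113 to 192 CPM at D25. The SD over cows was 426 CPM at D-3 and 23.2 CPM at D25. The edgeR test called *RETSAT* lower at D3 than at D-3 (log2 fold change -1.47, SE 0.28, FDR 2.16e-04), at D7 than at D-3 (-1.65, SE 0.28, FDR 2.25e-04) and at D25 than at D-3 (-1.68, SE 0.28, FDR 3.66e-05). However, only 7 of 12 cows fell from D-3 to D3, and the mean within-cow change of -0.90 ± 1.18 did not pass over the 24 tests (exact sign-flip p = 0.0317, adjusted p = 0.109). From D3 onwards no step was called, with log2 fold changes of -0.17, -0.07 and 0.04 (FDR 0.848 or more in edgeR).

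The high *RETSAT* values at D-3 were those of the 5 libraries rich in milk protein counts. There *RETSAT* ran from 733 to 1086 CPM, and in the other 7 it ran from 103 to 174 CPM, with no overlap. From D-3 to D3 it fell in 5 of the 5 cows, by a mean of -2.17 ± 0.50 on the log2 scale. In the other 7 cows the mean change was 0.00 ± 0.30, with 5 cows up and 2 down. Scaled by total counts alone, the 5 libraries still lay above the others, at 220 to 425 against 124 to 185 CPM, so the order did not come from the TMM factors, while the size of the gap did change with them. When the 5 libraries were left out, the edgeR fold change from D-3 to D3 was 0.26 (FDR 0.413), that to D7 0.084 (FDR 1.0) and that to D25 0.044 (FDR 1.0). That fit, used below wherever edgeR leaves these libraries out, sets 7 cows at D-3 against all 12 at later time points. Its fold changes are thus not changes of the same cows. The fall of *RETSAT* at dry-off thus rested on those 5 cows. Over all tested loci, 18 were then called at D3 vs. D-3 instead of 2217.

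*FABP4* followed *RETSAT* at D-3 and varied more among cows afterwards. At D-3 it ran from 41.9 to 568 CPM with a median of 136 CPM. It ran from 8.71 to 177 CPM (median 48.1 CPM) at D3 and from 10.9 to 188 CPM (median 74.9 CPM) at D7. It ran from 16.9 to 449 CPM (median 104 CPM) at D14, where the highest value was that of cow 7965, and from 4.95 to 202 CPM (median 77.6 CPM) at D25. At each time point the highest cow was thus many times the lowest, and the ranges overlapped throughout. *FABP4* was lower at D3 than at D-3 in 11 of 12 cows, by a mean of -1.62 ± 1.67 (exact sign-flip p = 0.00244, adjusted p = 0.0293), and edgeR called that fall (FDR 0.0130). The edgeR test also called it lower than at D-3 at D7 (log2 fold change -1.49, SE 0.49, FDR 0.0443) and at D25 (-1.56, SE 0.49, FDR 0.0258). The call at D7 was lost with cow as a block (-1.21, FDR 0.0879) and when any of 8 of the 12 cows was left out (FDR 0.0506 to 0.186), and that at D25 without cow 8564, 8647 or 8713 (FDR 0.0581 to 0.103).

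The 5 milk-rich D-3 libraries held the highest *FABP4* values, at 343 to 568 CPM against 41.9 to 141 CPM in the other 7. Scaled by total counts alone the sets overlapped, at 134 to 238 against 50.6 to 170 CPM. Without those libraries the edgeR fold change of *FABP4* from D-3 to D3 was -0.30 (FDR 0.832), and the mean within-cow change of the other 7 cows was -0.85 ± 1.06, with 6 cows down. To D7 and D25 the fold changes were -0.082 and -0.16 (FDR 1.0 in both). By TMM-scaled CPM *ADIPOQ* overlapped between the sets, at 4.08 to 19.3 CPM in the 5 libraries and 5.44 to 28.1 CPM in the other 7, as did *MEDAG*, at 4.3 to 11.9 and 1.75 to 17.6 CPM. By total counts *ADIPOQ* was lower in the 5, at 1.48 to 6.34 (median 4.74) against 5.53 to 33.2 CPM (median 14.5). The change of *ADIPOQ* from D-3 to D3 in the 5 cows thus depended on the scaling, at -0.94 ± 1.10 by TMM with 4 down and 0.36 ± 0.96 by total counts with 2 down. In the other 7 it did not, at -0.90 ± 0.86 with 7 down and -0.87 ± 0.91 with 6 down. Milk protein counts, TMM factors and levels of *RETSAT* and *FABP4* thus moved together at D-3, and the part of tissue make-up in this was not tested.

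**Figure D2:**
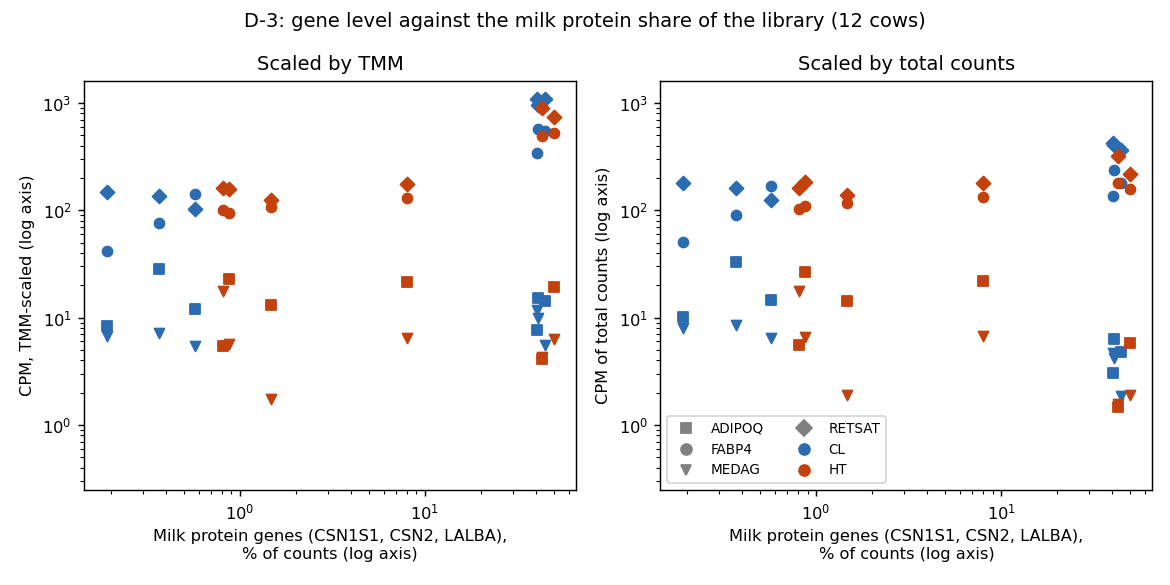
Level of the 4 genes in the 12 libraries of D-3 against the share of counts in *CSN1S1*, *CSN2* and *LALBA* (%, log axes), scaled by TMM on the left and by total counts on the right, with a marker shape for each gene and a colour for HT and CL. The 5 libraries with 40.2% or more milk protein counts have the highest *RETSAT* under both scalings, whereas *ADIPOQ* and *MEDAG* overlap between the sets under TMM and the *ADIPOQ* values of those libraries are mostly the lowest by total counts.

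*MEDAG* moved the other way to *ADIPOQ* in early involution. At D-3 it ran from 1.75 to 17.6 CPM with a median of 6.44 CPM. At D3 it ran from 1.19 to 48.2 CPM with a median of 16.6 CPM and was higher than at D-3 in 11 of 12 cows. At D7 it ran from 1.72 to 22.5 CPM (median 8.77 CPM) and was lower than at D3 in 10 of 12. It ran from 2.31 to 30.1 CPM (median 7.18 CPM) at D14 and from 2.28 to 10.4 CPM (median 4.10 CPM) at D25, lower than at D14 in 11 of 12. The 1 cow without a rise at D3 was CL cow 8686, whose value of 1.19 CPM was the lowest of the 60 libraries. The ranges overlapped at all times.

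The edgeR test called *MEDAG* higher at D3 than at D-3 (log2 fold change 1.33, SE 0.39, FDR 0.0151). Leaving out cow 8660, whose *MEDAG* went from 1.75 to 48.2 CPM, gave 1.02 (FDR 0.0743), and leaving out the 5 milk-rich D-3 libraries gave 1.36 (FDR 0.212), so that the size held with fewer samples while the call did not. The within-cow change averaged 1.09 ± 1.66 (exact sign-flip p = 0.0371, adjusted p = 0.109). The falls from D3 to D7 and from D14 to D25 passed over the 24 exact sign-flip tests, at -0.85 ± 0.93 (p = 0.00684, adjusted p = 0.0328) and -0.89 ± 1.06 (p = 0.00439, adjusted p = 0.0328). In edgeR they did not, at -0.98 (FDR 0.158) and -1.19 (FDR 0.566). The pairing behind the fall from D14 to D25 is less sure, as only 2 of 12 D14 libraries resembled the early libraries of their own cow most.

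Counted over the genes, 3 of 4 were called by edgeR at D3 vs. D-3 (1 higher, 2 lower), where 15.1% of all tested loci were called (6.03% higher, 9.04% lower). Only the 2873 tested loci with 1 symbol could be named, through lists of the smallest p. The shares over all loci are thus not a matched background, and these counts do not show enrichment. At D7 vs. D-3 the count was 2 of 4, both lower, against 8.46% of loci (7.12% lower), and at D25 vs. D-3 it was 2 of 4, both lower, against 13.1% of loci (9.16% lower). In each case these were *FABP4* and *RETSAT*, which share the D-3 libraries across the comparisons. None of the 4 was called at D7 vs. D3 (2.92% of loci), D14 vs. D7 (0% of loci) or D25 vs. D14 (0.0612% of loci). At an unadjusted p under 0.05 the edgeR counts there were 2, 1 and 2 of 4, against 16.6%, 1.75% and 3.63% of loci, and DESeq2 called 1, 0 and 0, the 1 being *ADIPOQ* at D7. By median level the order of the time points was D7, D25, D-3, D14 and D3 for *ADIPOQ*, and D-3, D14, D25, D7 and D3 for *FABP4*. It was D3, D7, D14, D-3 and D25 for *MEDAG*, and D-3, D3, D25, D7 and D14 for *RETSAT*. Between neighbours in these 4 orders no mean within-cow difference was larger than its SD over cows. Neighbours are by construction closest in median, so this does not test the orders. The *MEDAG* fall from D3 to D7, a pair of neighbours, passed the exact sign-flip test.

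Next, HT and CL cows were compared at each time point. None of the 4 genes was called by edgeR at any of the 5, where 0% of loci were called at each. Over the 20 tests 2 had an unadjusted p under 0.05, 1 at D14 and 1 at D25, where over all loci 2.03%, 0.659%, 4.57%, 1.68% and 2.26% did so from D-3 to D25. DESeq2 called 0, with no adjusted p for *ADIPOQ* at D14. At D14 *ADIPOQ* ran from 9.13 to 313 CPM (median 13.8 CPM) in HT and from 7.88 to 27.5 CPM (median 10.9 CPM) in CL, and the groups overlapped. The edgeR fold change of HT over CL was 2.16 on the log2 scale (SE 0.92, 95% interval 0.17 to 4.15, unadjusted p = 0.0357, FDR 0.998). It was -0.16 without cow 8541. The exact permutation test of 6 against 6 cows, which cannot go below p = 0.00216, gave p = 0.532 (adjusted p = 0.819 over 20 tests).

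*MEDAG* at D25 ran from 3.08 to 10.4 CPM (median 5.41 CPM) in HT and from 2.28 to 4.76 CPM (median 3.48 CPM) in CL, again with overlap. Its log2 fold change was 0.78 (SE 0.30, 95% interval 0.14 to 1.43, unadjusted p = 0.0214, FDR 0.997 in edgeR), and the exact permutation test gave p = 0.0476 (adjusted p = 0.701). The estimate lay between 0.55 and 0.92 over the settings tried, and the estimates for *MEDAG* at D3 (0.72), D7 (0.56) and D14 (0.43) were also above 0, without a call. *RETSAT* at D7 ran from 118 to 242 CPM in HT and from 114 to 149 CPM in CL, with a log2 fold change of 0.37 (95% interval -0.0047 to 0.74, FDR 0.959). *FABP4* at D7 ran from 50.1 to 188 CPM in HT and from 10.9 to 164 CPM in CL, with a log2 fold change of 0.70 (95% interval -0.44 to 1.83). Before treatment, at D-3, *RETSAT* differed by -0.65 (95% interval -2.24 to 0.95), with 3 of the 5 milk-rich libraries in CL and 2 in HT. After the start of treatment the intervals of *ADIPOQ*, *FABP4* and *MEDAG* reached beyond 1 log2 unit at 1 or more time points, so a lack of calls does not show equal levels. Those of *RETSAT* were narrower, from -0.43 at D3 to 0.74 at D7 at their widest.

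**Figure D3:**
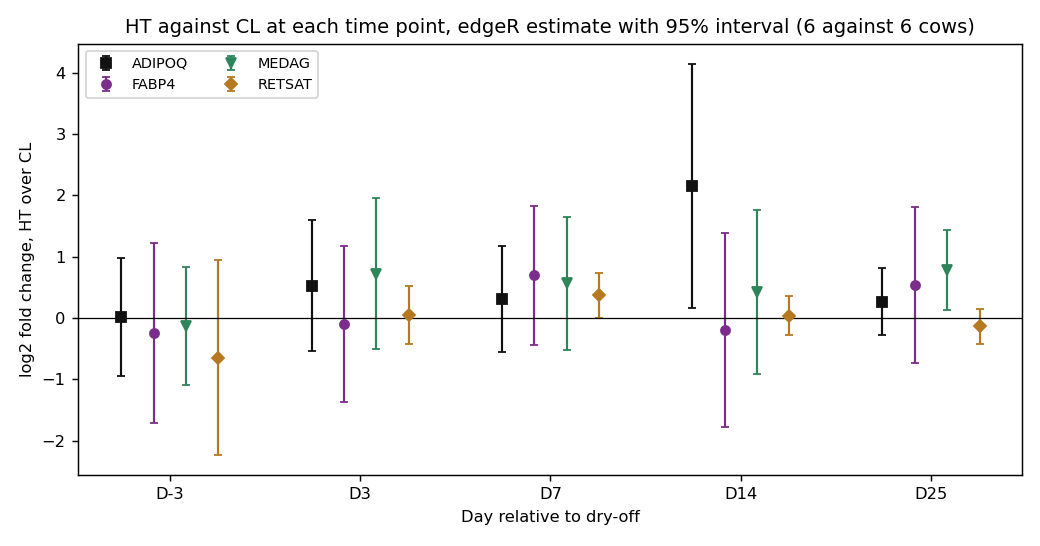
Log2 fold change of HT over CL for each gene at each time point, from edgeR with 95% intervals, 6 against 6 cows. Of the 20 intervals all but those of *ADIPOQ* at D14 and *MEDAG* at D25 span 0, and the estimate farthest from 0, *ADIPOQ* at D14 with 2.16, is the comparison that holds the library of cow 8541.

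The change of the HT effect over time was tested over all 60 libraries. The unadjusted p of the edgeR interaction test was 0.0973 for *ADIPOQ*, 0.810 for *FABP4*, 0.765 for *MEDAG* and 0.463 for *RETSAT*, with an FDR of 1.0 in each and 0% of loci called. The HT effect on *ADIPOQ* at D14 minus that at D-3 was 2.13 on the log2 scale (unadjusted p = 0.0137, FDR 1.0), with the library of cow 8541 again among the samples.

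Levels of the 4 genes were then compared over the cows of each time point, since fat tissue in a biopsy would carry several adipocyte transcripts together. At D-3 this was done over the 7 cows that were not milk-rich, because the 12 fell into separate sets. Of 30 correlations, 0 passed by Pearson's r (smallest adjusted p 0.113) and 2 by Spearman's rho, all tested by permutation of log2 CPM over cows. *FABP4* and *MEDAG* at D14 had r = 0.77 (permutation p = 0.00377, adjusted p = 0.113) and rho = 0.83 (permutation p = 0.00163, adjusted p = 0.0411). Without the 2 cows farthest from the median the r was 0.88, and without cows 7965 and 8541 it was 0.60. At the other time points the r of this pair lay between -0.26 and 0.32.

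*FABP4* and *RETSAT* went together at D3 and D7. At D7 they had r = 0.68 (permutation p = 0.0163, adjusted p = 0.163) and rho = 0.80 (permutation p = 0.00274, adjusted p = 0.0411), and r was 0.71 without the 2 farthest cows. At D3 they had r = 0.69 (permutation p = 0.0120, adjusted p = 0.163) and rho = 0.73 (permutation p = 0.00959, adjusted p = 0.0959), with an r of 0.95 (adjusted p = 0.00144) without the 2 farthest cows and of 0.50 when scaled by total counts alone. The r of this pair was 0.47 at D14, 0.21 at D25 and -0.24 over the 7 cows of D-3. *ADIPOQ*, the gene most particular to adipocytes among the 4, had r between -0.36 and 0.46 with the other 3 over the 5 time points, and none had a permutation p under 0.05. Over all 60 libraries, which are 5 from each cow, r was 0.19 for *ADIPOQ* with *FABP4*, -0.17 with *MEDAG* and -0.14 with *RETSAT*, and 0.62 for *FABP4* with *RETSAT*. The 4 genes thus did not rise and fall as 1 group over time or over cows, and they are described by gene. The fat content of the biopsies was not tested.

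**Figure D4:**
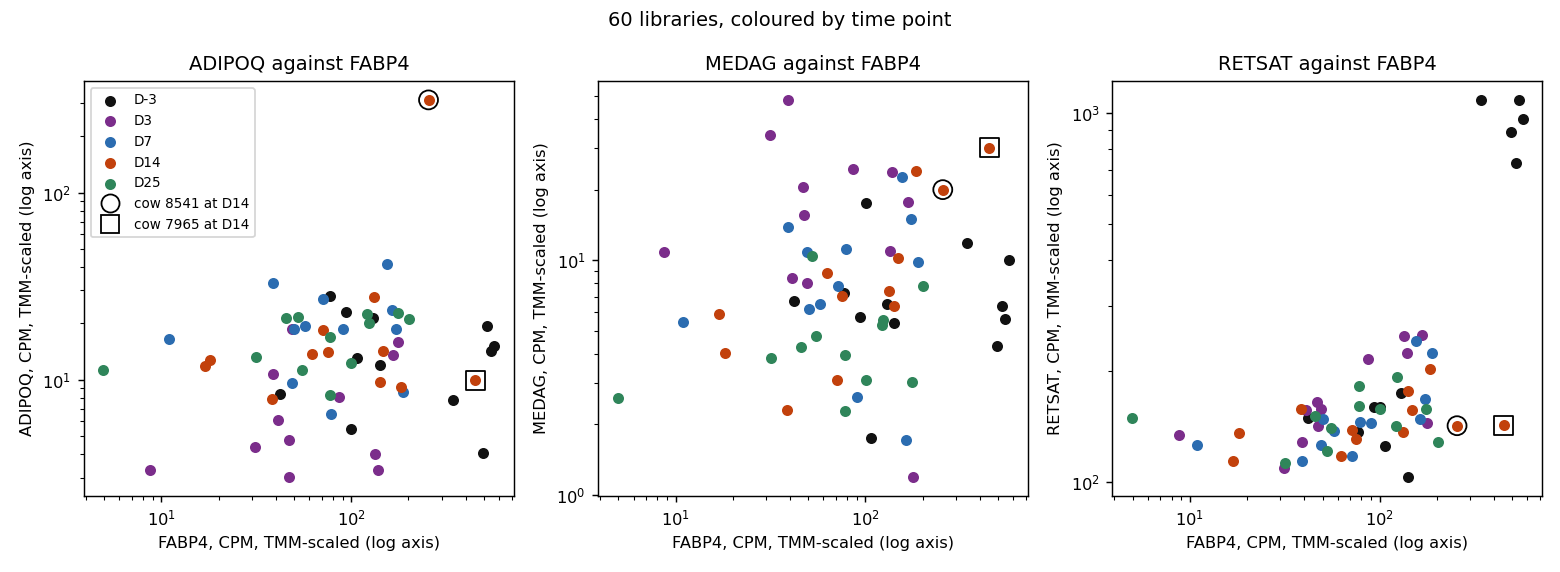
*ADIPOQ*, *MEDAG* and *RETSAT* against *FABP4* in 60 libraries (CPM scaled by TMM, log axes), coloured by time point, with the D14 libraries of cow 8541 (circle) and cow 7965 (square) marked. *RETSAT* and *FABP4* are both high in the 5 milk-rich libraries of D-3, and the high *ADIPOQ* library of cow 8541 does not lie on a trend with *FABP4*.

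**Figure D5:**
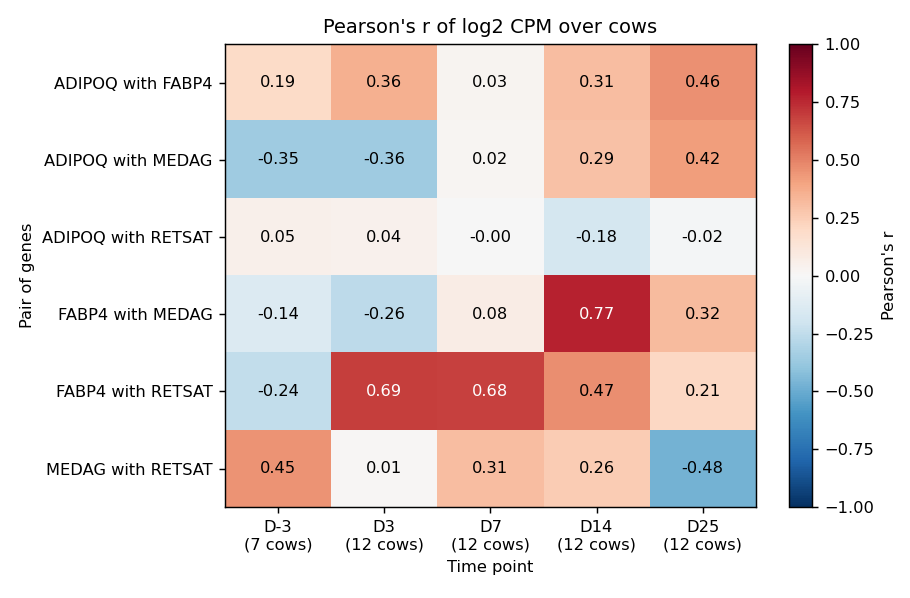
Pearson's r of log2 CPM for the 6 pairs of genes at each time point, over 12 cows and at D-3 over 7, on a colour scale from -1 to 1. The values of *FABP4* with *RETSAT* at D3 (0.69) and D7 (0.68) and of *FABP4* with *MEDAG* at D14 (0.77) stand out, while the pairs with *ADIPOQ* lie nearer to 0.

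Each gene was also set beside the milk protein genes and beside the adipocyte markers. Of 20 listed adipocyte markers only *PDE3B*, a cyclic nucleotide phosphodiesterase of insulin signalling in fat that other cells also make, was paired with a locus beside *ADIPOQ* and *FABP4*, so the adipocyte list came down to 1 gene. In a family of 40 correlations, 5 passed by Pearson's r and all were of *RETSAT*. It went with the milk protein genes at D3 (r = 0.77, permutation p = 0.00416, adjusted p = 0.0333; rho = 0.74, permutation p = 0.00747, adjusted p = 0.0747) and at D7 (r = 0.81, permutation p = 6.7e-04, adjusted p = 0.0268; rho = 0.87, permutation p = 4.7e-04, adjusted p = 0.0188). The r without the 2 farthest cows was 0.67 and 0.78. At D3 cows 8541, 8564, 8647 and 8713, milk-rich at D-3, still stood apart. They had 3.66% to 7.45% milk protein counts, against at most 1.01% in the other cows. Their TMM factors were 0.798 to 0.881, and *RETSAT* was 215 to 250 CPM against 109 to 165 CPM. The r at D3 thus spans separate sets, and a relation within them was not tested. By total counts *RETSAT* overlapped between the sets, at 172 to 220 against 123 to 193 CPM. It went with *PDE3B* at D3 (r = 0.75, permutation p = 0.00354, adjusted p = 0.0333), D14 (r = 0.79, permutation p = 0.00166, adjusted p = 0.0315) and D25 (r = 0.78, permutation p = 0.00236, adjusted p = 0.0315), with rho of 0.71, 0.63 and 0.83 (permutation p of 0.0130, 0.0320 and 0.00170, adjusted p of 0.104, 0.192 and 0.0340) and r of 0.54, 0.54 and 0.73 without the 2 farthest cows. *FABP4* with the milk protein genes reached r = 0.64 at D3 (permutation p = 0.0241, adjusted p = 0.160; rho = 0.78, permutation p = 0.00429, adjusted p = 0.0572; r = 0.87 without the 2 farthest cows). Without those 2 cows this r too spans the separate sets of D3. *ADIPOQ* and *MEDAG* had no permutation p under 0.05 with either, the r of *ADIPOQ* with *PDE3B* lying between -0.38 and 0.41.

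The named genes with the most similar pattern differed among the 4. The measure was Pearson's r over 60 libraries after the mean of each treatment and time point was subtracted, among 2873 tested loci with 1 symbol, as a description. For *FABP4* these were *PPARG* (r = 0.87), the nuclear receptor that drives adipocyte differentiation, *TIMP4* (0.76), an inhibitor of matrix-degrading proteases, *CD36* (0.74), a fatty acid transporter, *TSPAN13* (0.72) and *HIST1H2AC* (0.69), a histone gene whose family members may share reads. For *MEDAG* they were *DPT* (0.87), the protease inhibitors *TIMP2* (0.85) and *TIMP1* (0.80), *IGFALS* (0.79), a binding subunit of circulating insulin-like growth factor, and *AHNAK* (0.77). For *RETSAT* they were *OSBPL1A* (0.97), a sterol-binding protein, the Golgi protein gene *TGOLN2* (0.96), *ZCCHC17* (0.95), *RAB18* (0.94), a small GTPase of lipid droplets, and *MCFD2* (0.93), which helps export proteins from the endoplasmic reticulum.

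For *ADIPOQ* the nearest named genes were less close: *PPP1R1B* (0.52), an inhibitor of protein phosphatase, *GLT8D2* (0.49), *FAM186B* (0.48), *CPQ* (0.48) and *HIF3A* (0.47), a hypoxia-inducible factor. The nearest locus without a symbol reached 0.69, and 9 of the 10 nearest loci had none. Without the D14 libraries of cows 7965 and 8541 *FAM186B* (0.52), *VEGFC* (0.51) and *GLT8D2* (0.50) led instead. Without the libraries of D-3 the nearest named gene stayed *PPARG* for *FABP4* (0.87), *DPT* for *MEDAG* (0.88) and *OSBPL1A* for *RETSAT* (0.93). For *RETSAT* the others changed: *TGOLN2* was then at 0.84, and *ZCCHC17* and *RAB18* were no longer among the 5 nearest.

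The pathways of the 4 genes could be followed only where other members had a symbol. Of 18 lipid genes that adipocytes share with secretory epithelium, 12 were tested. At D3 vs. D-3 edgeR called 11 of the 12 lower (9.04% of all loci) and 0 higher, with a median log2 fold change of -2.71 against -0.01 over all loci. They included *FASN*, the fatty acid synthase (-2.99), *LPL* (-4.92) and *PPARG* (-0.94), and the exception was *PNPLA2*, a lipase of stored fat (0.21). Without the 5 milk-rich D-3 libraries 0 of the 12 were called, 4 were lower at an unadjusted p under 0.05, and the median was -0.63. Of all 14714 loci only 18 were called in that fit, so the 0 is not particular to the list. At D25 vs. D-3, 9 of the 12 were lower (9.16% of all loci). Without those libraries 0 were called (2 of all 14714 loci), with 0 at an unadjusted p under 0.05 and a median of -0.16. These genes were named through the same lists of changes, and *ADIPOQ*, with -0.84, and *FABP4*, with -1.71, lay nearer to 0 than the median of the 12. Of 8 genes of adiponectin signalling 3 were tested, and *PRKAA2*, a catalytic subunit of AMP-activated kinase (-1.36), and *PPARA*, a nuclear receptor of fatty acid oxidation (-0.85), were lower at D3 while *APPL2*, an adaptor of the adiponectin receptors, was not called (0.19). Of 19 retinoid genes 4 were tested. *LRAT*, which stores retinol as esters (-2.35), and *ALDH1A1*, which makes retinoic acid (-0.93), were lower at D3, and *DHRS3* (0.26) and *CRABP1* (0.58) were not called. Without the milk-rich libraries 0 of the 3 adiponectin signalling genes and 0 of the 4 retinoid genes were called at D3 vs. D-3, against 18 of all 14714 loci. In none of these 3 lists was a gene called between HT and CL at any time point, where 0% of all loci were called. At D7 the median log2 fold change of the 12 lipid genes was 0.82, against -0.0025 over all loci. Their medians at the other time points lay between -0.18 and 0.33. At D7 *FABP3* (2.53), *SCD* (1.84), *LPL* (1.49) and *PPARG* (0.66) had an unadjusted edgeR p under 0.05, as did 4.57% of all loci. The rest of the 12 did not. The cause was not tested.

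Markers of other tissues were sparse among the named loci. They too were named through lists of the smallest p, so the shares over all loci are not a matched background. At D3 vs. D-3, where 6.03% of all loci were called higher and 9.04% lower, edgeR called 3 of 3 milk protein genes lower, 2 of 3 myoepithelial genes higher (*KRT5* and *ACTA2*), the endothelial receptor gene *KDR* lower (-0.95) and the skeletal muscle myosin gene *MYH2* higher (2.95), while *KRT19*, *DCN*, *MYH7* and *PDE3B* (0.04) were not called. Without the milk-rich libraries none of these was called, in a fit that called 18 of all 14714 loci. For the milk protein genes this is no test, as the libraries left out were those richest in their counts. At D7 vs. D3, where 2.92% of loci were called, the 3 myoepithelial genes and *MYH2* were lower. Macrophage and lymphocyte markers had 0 tested members with a symbol, so these cells were not assessed. In the D14 library of cow 7965, where *KRT19* was nearly absent, *FABP4* was 449 CPM, *MEDAG* 30.1 CPM, *PPARG* 49.8 CPM and *KDR* 354 CPM, while *ADIPOQ* was 9.93 CPM and *RETSAT* 142 CPM. The highest D14 values of *FABP4* and *MEDAG* thus came from the library poorest in keratin and the highest *ADIPOQ* value from another, that of cow 8541, in which *DCN* and *DPT* were also above and *CSN1S1* and *CSN2* below the range of the others. The part of tissue make-up in these values was not tested.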

How the data were processed

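RNA of 60 mammary biopsies was sequenced from poly(A) libraries made with a kit that does not mark strand, as single-ended reads. The authors trimmed reads with Trim Galore (0.4.1), aligned them with TopHat2 (2.0.13), assembled transcripts with Cufflinks (2.2.1) and counted unique reads with HTSeq, and they deposited raw counts per locus for each sample. The genome is given as bosTau7 in the study's methods and as UMD3.1 in the submitters' processing notes, and no coordinates or sequences are given here. Each table had 26073 entries for 25223 loci, of which 742 joined several genes, none of the 4 examined. The median total was 22637562 counts per sample. Symbols were paired with loci through partial supplementary tables (3033 loci), so a gene without a symbol is not assessed here.

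The members and lists were chosen with earlier results of these data known. Loci reaching 1 CPM in 6 or more of the 60 samples were tested (14714) with edgeR (4.0.16, R 4.3.3), TMM scaling and the quasi-likelihood F-test, with an FDR of at most 0.05 by Benjamini-Hochberg over all tested loci. Time was tested over all 60 samples without a block, treatment over the 12 samples of a time point, and the interaction over all 60. Cow as a block was an alternative, as were DESeq2 (1.42.0), other scalings and filters, and leaving out cows. The exact tests by total counts and the lists without the milk-rich D-3 libraries were added after seeing the data. Libraries of 1 cow are from 1 animal, so cow numbers pair them: the mean correlation of residuals was 0.29 over 120 pairs of libraries of the same cow and -0.03 over 1320 pairs of different cows. The cows are separate animals, and the p-values of HT against CL at a time point measure the spread between them. The exact sign-flip tests measure the spread of differences within cows. The edgeR time and interaction tests without a block treat the 60 libraries as independent, so their p-values mix spread between and within cows. For single genes, log2 CPM with a prior count of 2 were compared by exact sign-flip tests (4096 sign changes, smallest p 4.88e-04), exact permutation of 6 against 6 cows (924 ways), and correlations with 100000 permutations. At D-3 correlations used the 7 cows with a TMM factor of at least 0.5 and exact permutation, in place of the 12 first planned. The tests were checked on simulated data.

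Genes named are the 4 members, the listed pathway and cell type genes, and the 5 genes with the most similar pattern to each member. The D14 values of *LPL*, *PPARG*, *PDE3B*, *PLIN2*, *CD36*, *GPAM*, *KDR*, *KRT19*, *DCN*, *DPT*, *CSN1S1*, *CSN2* and *PPP1R1B* were picked out after their values were seen.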

Additional observations from a re-analysis of the deposited data

Results flagged for a closer look

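The level of each gene was examined in 40 groups of 6 cows, by gene, treatment and time point, for a highest or lowest log2 CPM far from the rest by Dixon's ratio at its 95% critical value for 6 values. Chance alone marks about 1 in 20 such groups, and 2 were marked here. *ADIPOQ* in HT cows at D14 was 313 CPM in cow 8541 and at most 14.2 CPM in the other 5, a gap of 0.876 of the range on the log2 scale. *MEDAG* in CL cows at D3 was 1.19 CPM in cow 8686 and at least 8.39 CPM in the other 5, a gap of 0.641 of the range on the log2 scale.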

How the results depend on the processing

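Over time, 521 values of the 4 genes under the alternatives kept direction and side of the threshold, 12 passed it only there, 25 no longer passed it and 18 turned in direction, all but those of *RETSAT* against D-3 in steps that were never called. All values here are log2 fold changes or r. Without the 5 milk-rich D-3 libraries, chosen after seeing the data, *RETSAT* turned to 0.26 (D3 vs. D-3), 0.084 (D7 vs. D-3) and 0.044 (D25 vs. D-3), and calls were lost for *MEDAG* at D3 vs. D-3 (1.36) and for *FABP4* at D3 (-0.30), D7 (-0.082) and D25 (-0.16) vs. D-3. These fits have fewer samples and a D-3 group without its highest *RETSAT* and *FABP4* values. They set 7 cows at D-3 against 12 at later time points, so the 2 sides do not hold the same cows. With library size only, *FABP4* was -0.81, -0.48 and -0.46 in those comparisons and *RETSAT* at D7 vs. D-3 was -0.53, none called. That scaling moved the median of all loci to 0.35, 0.41 and 0.48, and relative to it *FABP4* was -1.16, -0.89 and -0.94. The *FABP4* call at D7 vs. D-3 was also lost with no filter on low counts (-1.47), with cow as a replicate block (-1.21, or -1.25 with the labels of cows 8513 and 8660 exchanged) and with only the 2 time points (-1.48), where that of *RETSAT* was lost too (-1.64). *ADIPOQ* at D7 vs. D3 was called with tagwise dispersions (1.33), cow as a replicate block (1.32, or 1.29 with labels exchanged), only the 2 time points (1.33), DESeq2 (1.34), and without the D14 library of cow 8541 (1.33) or of cows 7965 and 8541 (1.33). At D3 vs. D-3 it was called by DESeq2 (-0.84) and without those libraries (-0.84 in each). The block changed no other call. The cause of these changes was not tested.

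With 1 cow at a time left out, the fold changes were 1.02 to 1.44 for *MEDAG* at D3 vs. D-3, 1.13 to 1.59 for *ADIPOQ* at D7 vs. D3 (called without cow 8541 or 8668), -1.69 to -1.21 for *FABP4* at D7 vs. D-3 and -1.79 to -1.28 at D25 vs. D-3. Without the 2 farthest cows the r of *FABP4* passed with *RETSAT* at D3 (0.95) and with *MEDAG* at D14 (0.88). That at D3 spans separate sets of cows, as described above. The HT vs. CL tests cannot be blocked by cow, as each cow had 1 treatment, and of the alternative values of the 4 genes there 318 kept direction and 25 turned, none of them called. Loci called ranged over the alternatives from 18 to 3331 at D3 vs. D-3 (2217 as reported), 36 to 1022 at D7 vs. D3 (430), 0 to 10 at D14 vs. D7 (0), 0 to 30 at D25 vs. D14 (9), 0 to 2174 at D7 vs. D-3 (1245) and 2 to 6037 at D25 vs. D-3 (1930).

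Uncalled differences that turned in direction were these. At D14 vs. D7, *ADIPOQ* was -0.57 without the D14 library of cow 8541, -0.53 without those of 7965 and 8541 and -0.57 in DESeq2, *MEDAG* was -0.067 without that of 7965 and -0.25 without both, and *FABP4* was -0.082 without both. At D25 vs. D14, *ADIPOQ* was 0.32, 0.28 and 0.30 in the same order, and *FABP4* was 0.0064 without both. HT vs. CL was 0.12 for *MEDAG* at D-3 with library size only and 0.62 for *FABP4* at D14 without cow 7965. With 1 cow left out, the ranges over 0 were -0.53 to 1.16 (*ADIPOQ*), -0.12 to 0.46 (*MEDAG*) and -0.12 to 0.014 (*RETSAT*) at D14 vs. D7, and -1.31 to 0.27 (*ADIPOQ*) and -0.013 to 0.061 (*RETSAT*) at D25 vs. D14. For HT vs. CL they were -0.17 to 0.33 (*ADIPOQ*), -0.61 to 0.080 (*FABP4*) and -0.65 to 0.076 (*MEDAG*) at D-3, -0.47 to 0.26 (*FABP4*) and -0.072 to 0.16 (*RETSAT*) at D3, and -0.16 to 2.46 (*ADIPOQ*), -0.54 to 0.62 (*FABP4*) and -0.077 to 0.10 (*RETSAT*) at D14. The r that turned, none passing, were with library size only -0.0094 (*ADIPOQ*, *RETSAT*) and -0.28 (*MEDAG*, *RETSAT*) at D3, -0.083 (*ADIPOQ*, *FABP4*), -0.061 (*ADIPOQ*, *MEDAG*) and -0.039 (*FABP4*, *MEDAG*) at D7, and -0.13 (*MEDAG*, *RETSAT*) at D14. At D14 they were -0.0066 (*ADIPOQ*, *FABP4*) and -0.15 (*ADIPOQ*, *MEDAG*) without cow 8541, and -0.014 (*ADIPOQ*, *MEDAG*) without 7965 and 8541. Without the 2 farthest cows they were 0.35 (*ADIPOQ*, *MEDAG*) and -0.027 (*MEDAG*, *RETSAT*) at D3, -0.13 (*ADIPOQ*, *FABP4*), -0.17 (*ADIPOQ*, *MEDAG*) and -0.10 (*FABP4*, *MEDAG*) at D7, -0.19 (*ADIPOQ*, *FABP4*), -0.22 (*ADIPOQ*, *MEDAG*) and -0.11 (*MEDAG*, *RETSAT*) at D14, and 0.13 (*ADIPOQ*, *RETSAT*) and -0.22 (*FABP4*, *MEDAG*) at D25.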
